A study of Homo sapiens with 6 samples.

Results

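The genes described here are 60 genes of mitosis and of the transition from G2 phase into mitosis (G2/M), measured in MDA231-LM2 cells, and all 60 were found among the 19775 genes that the arrays represent. They were taken by name, from a list of textbook mitotic genes, each by the probe set (a group of short probes against 1 transcript) that carried 1 gene symbol and had the highest mean over the 6 arrays. MDA231-LM2 is a lung-seeking derivative of the human breast cancer line MDA-MB-231. The 3 oncosphere cultures grew for 4 days without serum on plates of ultra-low adhesion, in HuMEC medium that held B27 (2%), insulin at 5 μg/ml and 2 growth factors, bFGF at 10 ng/ml and epidermal growth factor (EGF) at 20 ng/ml. The 3 monolayer cultures were attached to dishes in DMEM GlutaMAX with 10% fetal bovine serum, penicillin, streptomycin and amphotericin B, and were taken 48 h after the medium was renewed. Attachment, serum, growth factors and time in culture all differed between the groups and cannot be told apart. The comparison addressed which genes differ when the same cells grow as floating spheres, a culture used to enrich for stem cell properties, in a study of JNK signaling and metastasis.

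Cells pass through mitosis under control of cyclin-dependent kinase 1 and its cyclins, which switch on the spindle, the kinetochores that tie chromosomes to it, and the condensins that compact the chromosomes. The anaphase-promoting complex (APC/C), a ubiquitin ligase, then marks securin and cyclin B for destruction, so that the sister chromatids part and the cell divides. Most of these genes are transcribed mainly in G2 and mitosis, and their RNA is therefore widely used as a measure of proliferation in tumors. In cycling cells the factors FOXM1 and B-MYB raise their transcription together with the MuvB complex, and in resting cells the DREAM complex, which also holds MuvB, represses them. Both act through a short promoter element called the cell cycle genes homology region (CHR), often with CCAAT boxes bound by NF-Y upstream of it. RNA of a whole culture was measured, so fewer cells in G2 or mitosis and less RNA in each such cell cannot be told apart.

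Across the arrays, log2 intensities correlated at 0.993 to 0.996 within groups and at 0.966 to 0.973 between groups, and array medians lay between 112.6 and 114.1. Of 21 cell type markers, 5 were higher, 4 lower and 12 not called. Among the mesenchymal markers, VIM (means of 20819 in oncospheres and 20145 in monolayer), CD44 (6792 and 5407) and MSN (3524 and 3743) were not called. SPARC (8745 and 3140) was higher, and EGFR (689 and 1171) and CAV1 (5824 and 8155) were lower. Of the luminal or epithelial markers, ESR1 (125 and 130.3), PGR (73.2 and 72.7) and CDH1 (70.7 and 80.2) lay near or below the median, whereas KRT19 (1695 and 991, higher), EPCAM (444 and 561, lower) and GATA3 (440.1 and 471) lay well above it. The luminal gene ERBB3 (136 and 176) was lower. The leukocyte gene PTPRC was low (71.4 and 79.5), and CD3E (127 and 116) and CD79A (185.2 and 185.8) were not called. CD14 (193 and 134) and LYZ (96.3 and 70.5) were higher in oncospheres. The endothelial genes CDH5 (70.8 and 70.0) and VWF (96.6 and 96.1) lay below the median, and PECAM1 (568 and 188) was higher. The part of other cell types in the results was not tested. One array stood apart in the genes described here. The oncosphere 2 array had the highest level of the 3 oncosphere arrays for 58 of the 60 genes (96.7%), against 7337 of all 19775 genes (37.1%) and 1945 of the 3466 genes that were called lower (56.1%). The counts are therefore also given without it.

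The promoters of these genes are shown first because many of them hold the letters of a CHR. The 5 promoters below belong to the called genes with the largest falls among those holding the letters TTTGAA, and CDC25B is set beside them as the single gene that rose. Each run covers 250 bases before and 50 bases after a RefSeq transcription start (GRCh38.p14), 5′ to 3′ on the strand of the gene. Capitals mark TTTGAA, the usual letters of a CHR, and CCAAT, those of the NF-Y box, each on either strand (TTCAAA and ATTGG on the other).
CDC20 (chr1:43358731-43359030, + strand): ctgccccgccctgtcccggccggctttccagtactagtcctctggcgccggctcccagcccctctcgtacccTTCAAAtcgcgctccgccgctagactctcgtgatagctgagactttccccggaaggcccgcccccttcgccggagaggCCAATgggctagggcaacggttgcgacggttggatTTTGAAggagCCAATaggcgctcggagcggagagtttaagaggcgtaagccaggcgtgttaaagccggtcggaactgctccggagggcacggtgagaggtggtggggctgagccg
MKI67 (chr10:128126374-128126673, - strand): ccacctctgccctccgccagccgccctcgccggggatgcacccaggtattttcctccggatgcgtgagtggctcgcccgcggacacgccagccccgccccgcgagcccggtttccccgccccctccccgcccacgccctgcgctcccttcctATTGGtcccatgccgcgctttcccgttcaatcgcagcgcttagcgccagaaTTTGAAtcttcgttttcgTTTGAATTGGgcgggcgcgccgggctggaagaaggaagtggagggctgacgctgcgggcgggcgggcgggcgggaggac
CDCA8 (chr1:37692266-37692565, + strand): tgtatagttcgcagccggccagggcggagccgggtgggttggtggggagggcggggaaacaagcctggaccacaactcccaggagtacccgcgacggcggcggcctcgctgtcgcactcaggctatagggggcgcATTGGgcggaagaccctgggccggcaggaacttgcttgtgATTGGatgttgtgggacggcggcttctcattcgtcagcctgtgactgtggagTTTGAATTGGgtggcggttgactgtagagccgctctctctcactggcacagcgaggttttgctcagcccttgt
CENPN (chr16:81006964-81007263, + strand): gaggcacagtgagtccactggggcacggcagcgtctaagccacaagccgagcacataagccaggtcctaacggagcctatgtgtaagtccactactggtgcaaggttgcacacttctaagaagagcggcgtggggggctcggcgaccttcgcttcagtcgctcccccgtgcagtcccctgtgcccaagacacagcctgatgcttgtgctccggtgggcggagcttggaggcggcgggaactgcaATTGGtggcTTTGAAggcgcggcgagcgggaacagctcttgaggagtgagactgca
NUF2 (chr1:163321704-163322003, + strand): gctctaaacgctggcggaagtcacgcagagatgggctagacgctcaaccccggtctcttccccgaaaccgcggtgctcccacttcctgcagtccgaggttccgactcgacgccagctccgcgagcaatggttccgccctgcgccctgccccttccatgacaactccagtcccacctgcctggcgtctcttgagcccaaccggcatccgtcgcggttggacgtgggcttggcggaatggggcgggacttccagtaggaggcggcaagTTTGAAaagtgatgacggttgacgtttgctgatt
CDC25B (chr20:3786701-3787000, + strand): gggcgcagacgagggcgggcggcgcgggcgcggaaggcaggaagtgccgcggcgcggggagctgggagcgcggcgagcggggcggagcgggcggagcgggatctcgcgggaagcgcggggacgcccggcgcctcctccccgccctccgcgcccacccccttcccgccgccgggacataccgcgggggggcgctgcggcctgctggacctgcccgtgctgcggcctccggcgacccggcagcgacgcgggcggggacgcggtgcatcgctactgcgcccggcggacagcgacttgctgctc

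In the CDC20 promoter, TTTGAA letters began 178 and 65 bases before the start and CCAAT letters 100 and 55 bases before it. MKI67 held TTTGAA 47 and 29 bases before its start, the second of them running into an ATTGG, and the CDCA8 promoter had the same joined arrangement, 23 bases before its start. The match lay 3 bases after the start in CENPN and 16 bases after it in NUF2, which held no CCAAT. The CDC25B window is the most upstream of 4 listed for that gene. It held neither motif, none of the 4 held TTTGAA, and 2 of them held CCAAT.

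The RefSeq promoter table listed 52 of the 60 genes, with 64 windows (not UBE2C, AURKA, FOXM1, BUB3, TTK, BIRC5, TPX2 and RACGAP1). TTTGAA occurred in 37 of the 52 genes (71.2%), against 2399 of 15384 measured genes with a listed promoter (15.6%) and 3 of 43 DNA replication genes (6.98%). CCAAT occurred in 40 of the 52 genes (76.9%), against 41.7% of the measured genes and 24 of 43 replication genes (55.8%). Over all 35116 windows of this length, 15.2% held TTTGAA and 34.6% held CCAAT. Counted by windows, 62.5% of the 64 held TTTGAA, against 12.3% of 21490 windows of measured genes, and 70.3% held CCAAT, against 34.5%. TTTGAA began between 50 bases before and 24 bases after the start in 29 of 64 windows (45.3%), against 2.93% of windows of measured genes. CCAAT began between 100 and 26 bases before the start in 33 of 64 windows (51.6%), against 17.7% of the windows of measured genes. These 2 stretches are those where the matches of the 60 genes were most frequent, so their contrast is a description only.

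**Figure D1:**
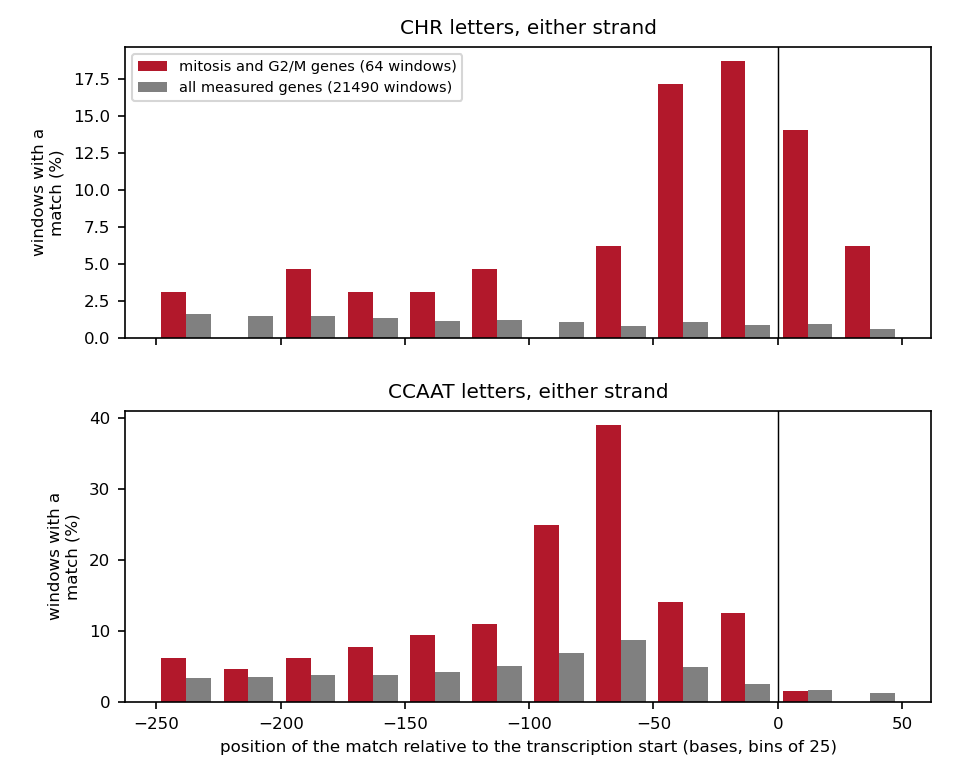
Share of promoter windows (%) in which CHR letters (upper panel) or CCAAT letters (lower panel) begin in each bin of 25 bases, by distance from the transcription start, for mitosis and G2/M genes (red, 64 windows) and all measured genes (grey, 21490 windows). CHR letters of the mitosis genes gather from 50 bases before to 24 bases after the start (45.3% of windows, against 2.93%), and CCAAT letters lie mostly upstream of them.

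Within the mitosis and G2/M genes, changes differed little with the letters, and the difference was not tested. Only the exact letters were searched, so any other form of a CHR was not counted as a match. The median log2 change was -0.79 for the 37 genes with TTTGAA and -0.84 for the 15 without it, -0.84 for the 40 with CCAAT and -0.70 for the 12 without it, and -0.83 for the 29 with both in 1 window against -0.80 for the other 23. Among further mitosis genes the medians were -0.44 for the 47 with TTTGAA and -0.26 for the 86 without it. Among all measured genes with a listed promoter, 19.5% of those with TTTGAA were called lower and 18.2% of those without it. A match of letters is a description of the window and not evidence that a factor was bound there.

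Nearly all of the mitosis and G2/M genes were lower in oncospheres. Of the 60 genes, 57 fell, CDC25B alone rose and 2 (KIF15 and CDCA5) were not called, at an adjusted p below 0.05 over all probe sets (limma, Benjamini-Hochberg). Over all 19775 genes, 17.5% fell and 17.4% rose. The median log2 change of the 60 genes was -0.80, a level 1.74-fold lower, against a median of -0.02 over all genes. A fall of at least 1.5-fold was called for 47 of them, where the share over all genes was 5.61%, and one of at least 2-fold for 13, where it was 1.27%. The 13 were CDC20, AURKA, CCNB1, BUB1, CENPN, NUF2, SPC25, CDCA8, TPX2, DLGAP5, KIF20A, KIF14 and MKI67, which are spread over all 8 roles. None of the 60 rose by 1.5-fold, as 7.27% of all genes did. For 57 genes all 3 oncosphere arrays lay below all 3 monolayer arrays, which held for 24.6% of all genes. The group means ran from 173 to 6344 in oncospheres and from 318 to 8808 in monolayer, all above the median of 113 over all values.

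**Figure D2:**
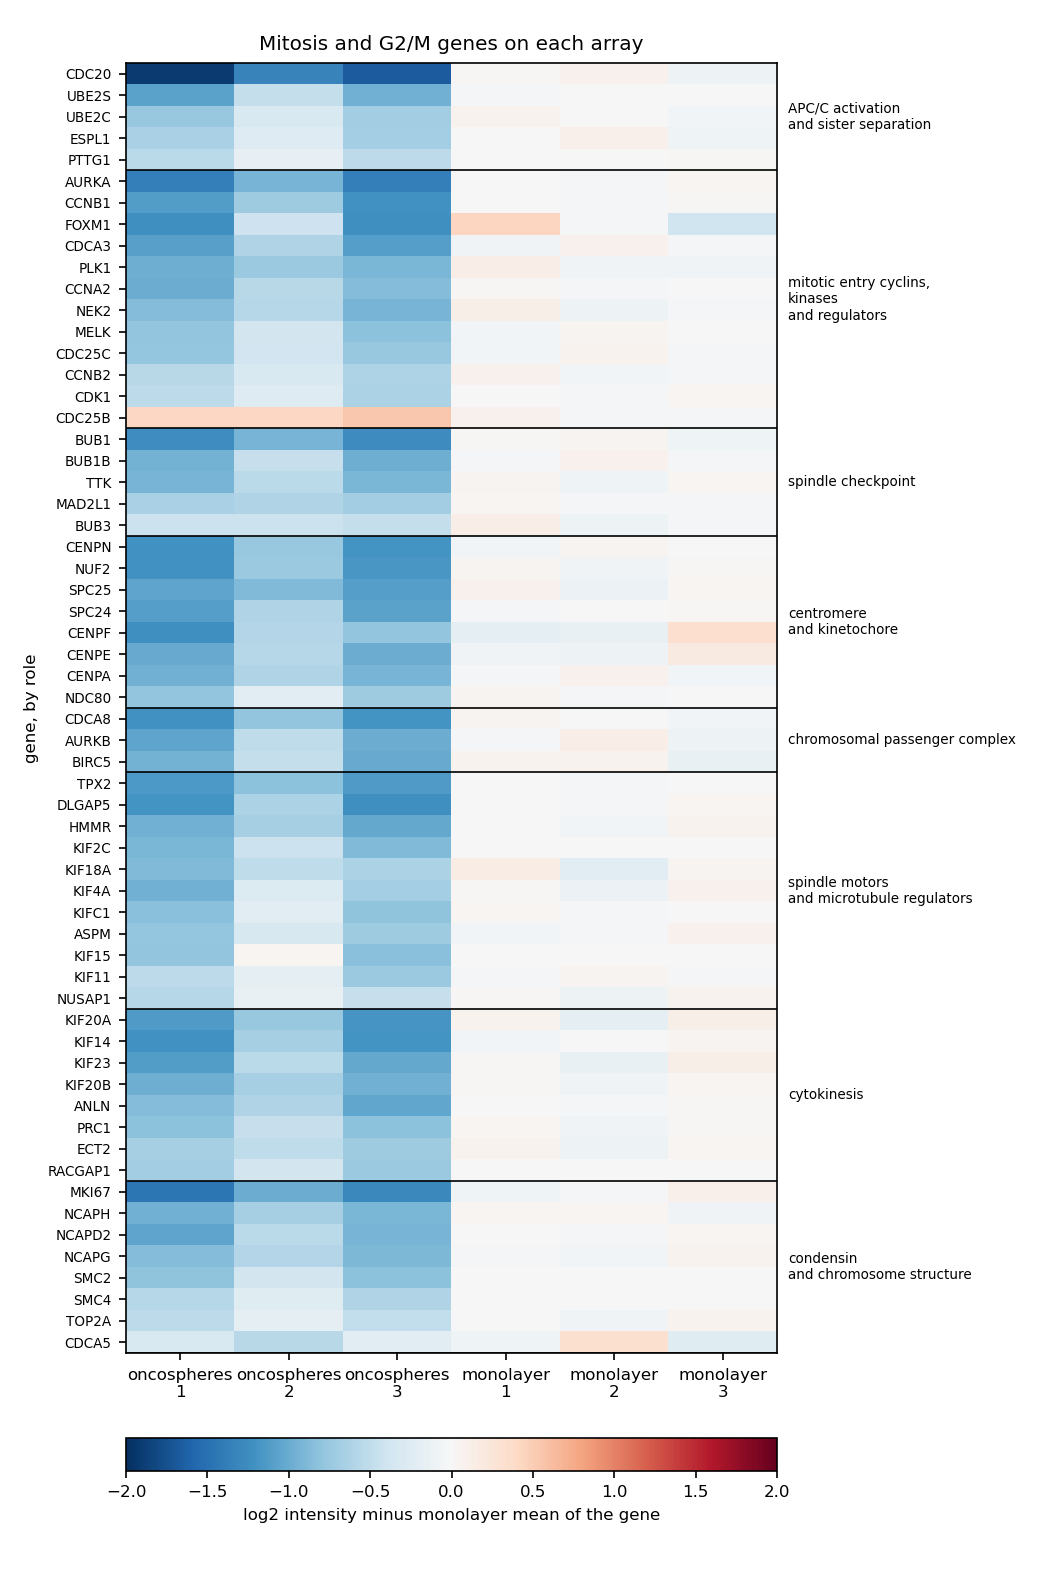
Level of each of the 60 genes (rows, by role) on each array (columns), as log2 intensity minus the mean of the 3 monolayer arrays, where blue is lower and red higher. The oncosphere columns are blue in nearly every row, the oncosphere 2 column is paler (its median is -0.54, against -0.95 on oncosphere array 1 and -0.91 on array 3), and CDC25B is the red row.

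The genes that start anaphase through the APC/C fell, all 5 of them, with a median log2 change of -0.59. CDC20, the activator that brings substrates to the APC/C, changed most of all 60 genes. Its intensities were 1084, 1622 and 1294 on the oncosphere arrays 1, 2 and 3, against 4136, 4331 and 3799 on the monolayer arrays. The groups were far apart, and the level in oncospheres was 3.1-fold lower (log2 change -1.63, SE 0.14, adjusted p = 7.01e-05). UBE2C and UBE2S, the ubiquitin-conjugating enzymes that start and extend the chains built by the APC/C, fell too, with log2 changes of -0.59 and -0.84. UBE2S had intensities of 4214, 6308 and 4524 on the oncosphere arrays 1, 2 and 3, against 8659.9, 8883 and 8882 on the monolayer arrays. PTTG1, the securin that holds separase inactive, had intensities of 5759.7, 7442 and 5829 on the oncosphere arrays 1, 2 and 3, against 8283, 8255 and 8470.4 on the monolayer arrays, and oncosphere array 2 lay closer to monolayer than to the other oncosphere arrays (log2 change -0.40, SE 0.10, adjusted p = 0.0165). Its call was lost without oncosphere array 1 (adjusted p = 0.0599), oncosphere array 3 (0.0586) or monolayer array 3 (0.0546). PTTG1 was read by a single probe set of the _x_at kind, which can match related transcripts. ESPL1, the separase that cuts cohesin, fell by 0.53 on the log2 scale (adjusted p = 0.00923).

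Among the cyclins, kinases and regulators of mitotic entry, 11 of 12 fell and CDC25B rose, with a median log2 change of -0.80. AURKA, the kinase of centrosome maturation and spindle assembly, was 2.33-fold lower by its brightest probe set. Its intensities were 2078, 2814 and 2082 on the oncosphere arrays 1, 2 and 3, against 5334, 5266 and 5479 on the monolayer arrays, with no overlap between the groups (log2 change -1.22, SE 0.12, adjusted p = 1.32e-04). The other AURKA probe sets fell less, with log2 changes of -0.63 (mean intensity 2562) and -0.60 (197). CCNB1, the cyclin B that activates CDK1, had intensities of 2499, 3312 and 2321 on the oncosphere arrays 1, 2 and 3, against 5427, 5268 and 5509.7 on the monolayer arrays (log2 change -1.01, SE 0.12, adjusted p = 4.68e-04). Its level was 2.02-fold lower by this probe set, and the log2 change was -0.70 by its other one. For cyclin A2, CCNA2, log2 changes were -0.80 and, by a probe set nearly as bright, -1.12, so that the order of CCNB1 and CCNA2 depended on the probe set. CCNB2 fell by 0.49 on the log2 scale. CDK1 itself, the kinase that these cyclins serve, fell by 0.47 on the log2 scale by its brightest probe set. The 3 dimmer CDK1 probe sets were also lower, with log2 changes of -0.67, -0.76 and -0.68. Its intensities of 4014, 4811 and 3709 on the oncosphere arrays 1, 2 and 3, against 5738, 5579 and 5918 on the monolayer arrays did not overlap between groups. Log2 changes were -0.88 for PLK1, a kinase that acts from entry to cytokinesis, -0.79 for NEK2, which parts the centrosomes, -0.93 for CDCA3, a regulator of entry, and -0.66 for the kinase MELK. PLK1, with intensities of 161, 190.3 and 168 on the oncosphere arrays 1, 2 and 3, against 349.7, 302 and 303 on the monolayer arrays, showed no overlap between the groups.

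FOXM1, a transcription factor of G2/M genes, had the largest SE of all 60 genes. Like PTTG1, it was read by a single probe set of the _x_at kind, with no other to set against it. Its intensities were 655, 1149.8 and 653 on the oncosphere arrays 1, 2 and 3, against 2055, 1493 and 1162 on the monolayer arrays. The highest oncosphere array nearly reached the lowest monolayer array, and the log2 change of -0.95 had an SE of 0.26 (limma, adjusted p = 0.0258). The call was lost without oncosphere array 1 (adjusted p = 0.0877), oncosphere array 3 (0.0852), monolayer array 1 (0.0849) or monolayer array 2 (0.0681). Without oncosphere array 2 it was kept, with a log2 change of -1.22 and an adjusted p of 0.00488.

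The CDC25 phosphatases, which remove inhibitory phosphates from CDK1, went in opposite directions among the 60 genes. CDC25B had intensities of 2004, 1998 and 2185 on the oncosphere arrays 1, 2 and 3, against 1588, 1460.5 and 1456 on the monolayer arrays. All 3 oncosphere arrays lay above all 3 monolayer arrays, and the level was 1.37-fold higher (log2 change 0.46, SE 0.07, adjusted p = 0.00112). Over all genes, 22.3% showed oncosphere arrays above monolayer arrays without overlap. CDC25C had intensities of 294, 384 and 296 on the oncosphere arrays 1, 2 and 3, against 484, 529 and 493 on the monolayer arrays, and was 1.56-fold lower (log2 change -0.64, SE 0.11, adjusted p = 0.00245). Of the other CDC25C probe sets, 1 was also lower (log2 change -0.66) and 1, with a mean intensity of 106, was not called (0.03). CDC25B had 1 probe set, of the _s_at kind, and no other to set against it. CDC25A, a phosphatase of the same family that acts from G1 onward and was not among the 60 genes, fell by 1.04 on the log2 scale (adjusted p = 0.00108).

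**Figure D3:**
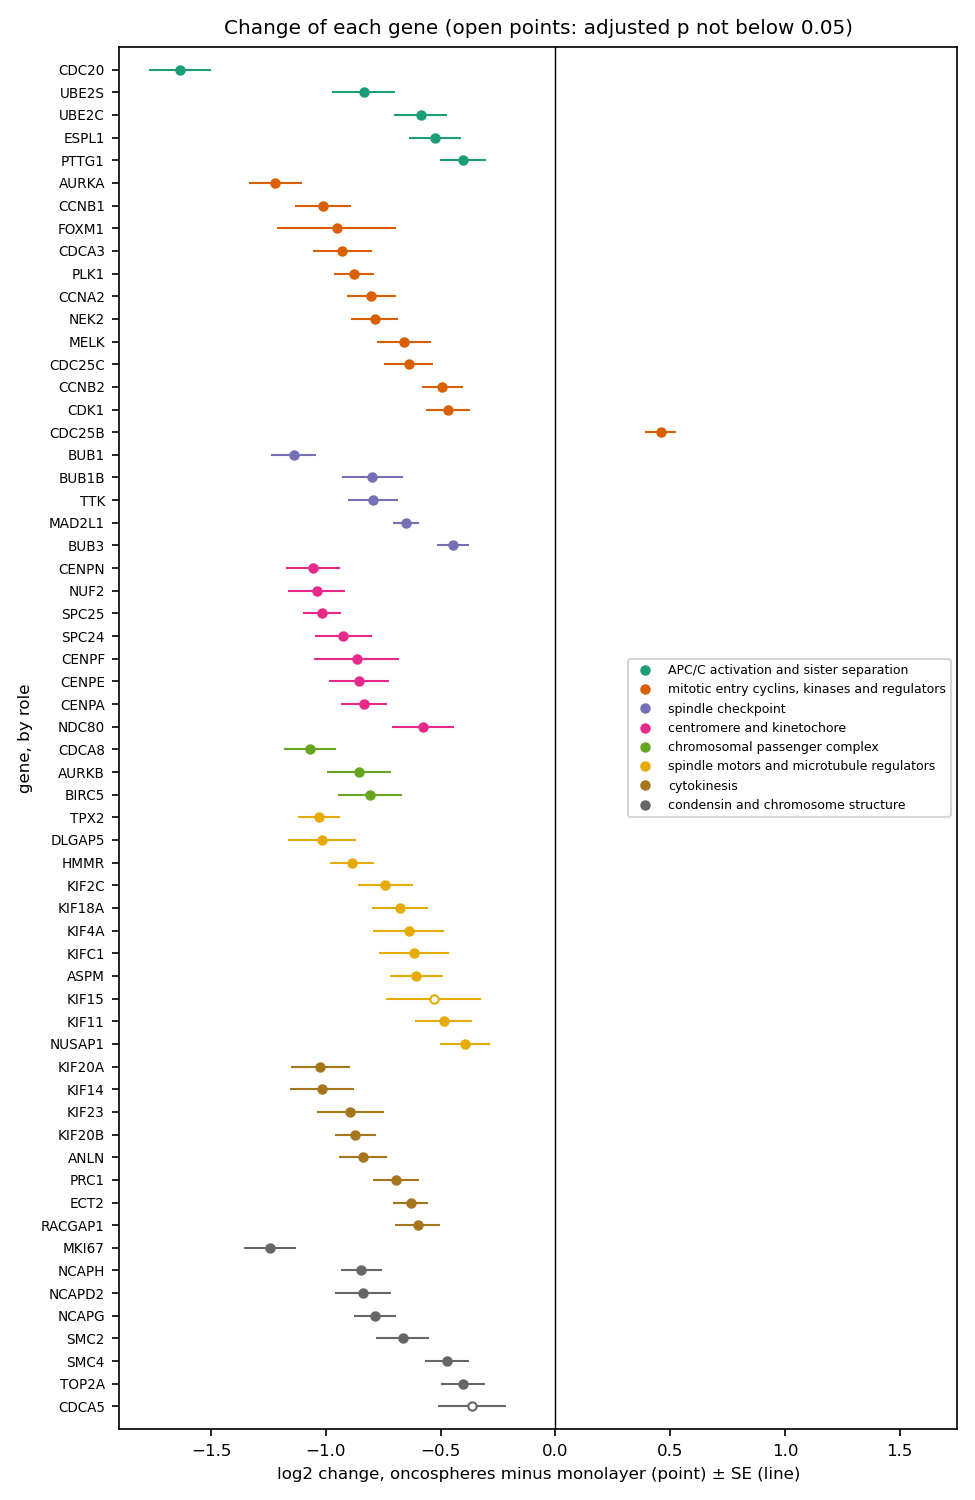
Log2 change of each of the 60 genes, oncospheres minus monolayer (points, with lines of ± 1 SE, n = 3 arrays each), in the order of their roles. Of the 60 points, 59 lie left of 0 and CDC25B lies at 0.46, and the open points are KIF15 and CDCA5, which were not called.

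All 5 genes of the spindle checkpoint, which holds the APC/C back until every kinetochore is attached, fell (median log2 change -0.79). BUB1, a kinase that recruits checkpoint proteins to kinetochores, had intensities of 751, 940.1 and 749 on the oncosphere arrays 1, 2 and 3, against 1818, 1856 and 1683 on the monolayer arrays. It was 2.21-fold lower (log2 change -1.14, SE 0.10, adjusted p = 7.88e-05), its next brightest probe set had a log2 change of -1.06, and its 3 dim ones were not called. TTK, the kinase that starts the checkpoint signal, and BUB1B, which binds CDC20 within the inhibitory complex, had log2 changes of -0.79 and -0.80. MAD2L1, which also binds CDC20, and BUB3 had log2 changes of -0.65 and -0.45 by their brightest probe sets, on which the oncosphere arrays were close together. Other probe sets fell further, with log2 changes of -0.998 and -0.94 for MAD2L1 (mean intensities 2669 and 342) and -0.81 for BUB3. Of the remaining BUB3 probe sets, the bright ones had -0.38 and -0.41. The dim ones, with mean intensities of 131 and 147, had -0.35 (lower) and -0.03 (not called). MAD2L1 had intensities of 2562, 2643 and 2489 on the oncosphere arrays 1, 2 and 3, against 4161, 3969.7 and 3965 on the monolayer arrays. BUB3 had intensities of 4939, 4945 and 4803 on the oncosphere arrays 1, 2 and 3, against 7275, 6216 and 6554 on the monolayer arrays. On these probe sets the oncosphere 2 array did not stand apart as it did for most others.

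Of the centromere and kinetochore genes, 8 of 8 fell, with a median log2 change of -0.89, the lowest median of the 8 roles. The 4 genes of the NDC80 complex, which grips the spindle microtubules, moved by unlike amounts. NUF2 had intensities of 817, 1142 and 844 on the oncosphere arrays 1, 2 and 3, against 1969, 1801 and 1935 on the monolayer arrays (log2 change -1.04). SPC25 had intensities of 353, 395 and 339.6 on the oncosphere arrays 1, 2 and 3, against 775, 673 and 753 on the monolayer arrays (log2 change -1.02). Log2 changes were -0.92 for SPC24, the partner of SPC25, and -0.58 for NDC80, the partner of NUF2. NDC80 had intensities of 1015, 1490.2 and 1062 on the oncosphere arrays 1, 2 and 3, against 1807, 1704 and 1731 on the monolayer arrays, so that oncosphere array 2 lay closer to monolayer than to the other oncosphere arrays. CENPN, which reads the centromeric nucleosome, had intensities of 1164, 1590.2 and 1185 on the oncosphere arrays 1, 2 and 3, against 2611, 2808 and 2694 on the monolayer arrays and was 2.08-fold lower (log2 change -1.06, SE 0.12, adjusted p = 2.96e-04). Log2 changes were -0.83 for CENPA, the histone variant of that nucleosome, -0.86 for the kinetochore motor CENPE and -0.87 for CENPF.

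The chromosomal passenger complex, which corrects faulty attachments and later moves to the midzone of the spindle, is represented among the 60 genes by 3, which all fell. The remaining subunit, INCENP, from the further mitosis genes and chosen after its value was seen, also fell (log2 change -0.49, adjusted p = 0.00294). CDCA8, or borealin, had intensities of 744, 999 and 753 on the oncosphere arrays 1, 2 and 3, against 1789.6, 1733 and 1669.5 on the monolayer arrays, a level 2.1-fold lower in oncospheres (log2 change -1.07, SE 0.11, adjusted p = 2.27e-04). Log2 changes were -0.86 for AURKB, the kinase of the complex, and -0.81 for BIRC5, or survivin. The 4 probe sets of BIRC5 gave log2 changes between -0.82 and -0.67.

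Among the spindle motors and microtubule regulators, 10 of 11 fell and KIF15 was not called, with a median log2 change of -0.64. TPX2, which activates AURKA and promotes microtubule growth near chromosomes, had intensities of 1901, 2383 and 1915 on the oncosphere arrays 1, 2 and 3, against 4222, 4150.4 and 4234 on the monolayer arrays. It was 2.04-fold lower (log2 change -1.03, SE 0.09, adjusted p = 9.65e-05), and DLGAP5, which stabilizes kinetochore fibers, had a log2 change of -1.02. DLGAP5 had intensities of 1618, 2382 and 1571 on the oncosphere arrays 1, 2 and 3, against 3696, 3574 and 3799 on the monolayer arrays. The largest changes in this role were those of TPX2 and DLGAP5, which are not kinesins. The kinesins KIF20A and KIF14, listed under cytokinesis, had log2 changes of -1.02 and -1.02. Within this role, log2 changes were -0.74 for the kinesin KIF2C, which takes microtubules apart, and -0.68 for KIF18A, which damps chromosome movements. They were -0.64 for the chromokinesin KIF4A and -0.62 for the minus-end motor KIFC1. They were -0.89 for HMMR, -0.61 for the spindle pole protein ASPM and -0.39 for NUSAP1, which bundles microtubules near chromosomes.

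The motors that push the spindle poles apart were among the least settled genes. KIF11, the main such motor, had intensities of 970.0, 1214 and 835 on the oncosphere arrays 1, 2 and 3, against 1358, 1450.5 and 1374 on the monolayer arrays (log2 change -0.49, SE 0.12, adjusted p = 0.0188). Its call was lost without oncosphere array 1 (adjusted p = 0.0603), monolayer array 2 (0.0651) or monolayer array 3 (0.0519). KIF15, which can stand in for KIF11, had intensities of 399.7, 709 and 389.9 on the oncosphere arrays 1, 2 and 3, against 696, 693 and 691 on the monolayer arrays. Oncosphere array 2 lay above every monolayer array while the other oncosphere arrays lay well below them, and KIF15 missed the threshold (log2 change -0.53, SE 0.21, adjusted p = 0.0955). Without oncosphere array 2 KIF15 fell, with a log2 change of -0.81 (adjusted p = 1.02e-04). The calls of NUSAP1, KIFC1 and KIF4A also depended on single arrays. NUSAP1 had intensities of 2862, 3864 and 3103 on the oncosphere arrays 1, 2 and 3, against 4359.8, 4002 and 4465 on the monolayer arrays, and was not called without oncosphere array 1 or 3 or monolayer array 1 or 3 (adjusted p 0.0857 to 0.0925). KIFC1 had intensities of 837, 1286 and 857 on the oncosphere arrays 1, 2 and 3, against 1526, 1468 and 1482 on the monolayer arrays, and was not called without oncosphere array 1 (0.0565), oncosphere array 3 (0.0572) or monolayer array 1 (0.0564), nor KIF4A without monolayer array 1 (0.0542) or 3 (0.0579).

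All 8 cytokinesis genes fell, with a median log2 change of -0.86, and each fell by at least 1.5-fold. KIF20A, which carries the passenger complex to the midzone, had intensities of 1329, 1732 and 1292 on the oncosphere arrays 1, 2 and 3, against 3064, 2564 and 3189 on the monolayer arrays (log2 change -1.02, SE 0.13, adjusted p = 5.45e-04). KIF14, a kinesin of the midbody, had intensities of 697, 1021 and 707 on the oncosphere arrays 1, 2 and 3, against 1548, 1619 and 1664 on the monolayer arrays. The falls were alike in size, 2.03-fold for KIF20A and 2.02-fold for KIF14, with the oncosphere arrays all below the monolayer arrays. KIF23 and RACGAP1 together form centralspindlin, and had log2 changes of -0.89 and -0.60. Log2 changes were -0.69 for PRC1, which bundles midzone microtubules, -0.63 for ECT2, which activates RhoA at the furrow, and -0.84 for the scaffold anillin, ANLN. ANLN had intensities of 2809, 3371 and 2483 on the oncosphere arrays 1, 2 and 3, against 5127, 5049.6 and 5185 on the monolayer arrays. KIF20B fell by 0.87 on the log2 scale by its brightest probe set, and its other 2 probe sets, with mean intensities of 78.0 and 74.2, were not called.

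Of the condensin and chromosome structure genes, 7 of 8 fell, with a median log2 change of -0.73. MKI67, which coats mitotic chromosomes and whose protein is the Ki-67 proliferation marker, had intensities of 565, 772 and 634 on the oncosphere arrays 1, 2 and 3, against 1459.9, 1520.2 and 1654 on the monolayer arrays. It was 2.37-fold lower (log2 change -1.24, SE 0.11, adjusted p = 1.07e-04), and its 3 other probe sets had log2 changes of -0.89, -0.59 and -0.78. The subunits particular to condensin I, NCAPH, NCAPD2 and NCAPG, had log2 changes of -0.85, -0.84 and -0.79, and the ATPase subunits SMC2 and SMC4, which condensin II shares, of -0.67 and -0.47. TOP2A, which untangles DNA, had intensities of 3967, 4997 and 4037 on the oncosphere arrays 1, 2 and 3, against 5691, 5440.0 and 5991 on the monolayer arrays (log2 change -0.40), and the call was just lost without oncosphere array 1 (adjusted p = 0.0509), oncosphere array 3 (0.0502) or monolayer array 3 (0.0525). CDCA5, or sororin, which protects cohesion, had intensities of 982, 825 and 1034 on the oncosphere arrays 1, 2 and 3, against 1143, 1523 and 1027 on the monolayer arrays. The groups overlapped, monolayer array 2 stood above the rest, and CDCA5 missed the threshold (log2 change -0.36, SE 0.15, adjusted p = 0.111).

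Other probe sets of the same genes mostly moved the same way. Of 56 further probe sets, which belonged to 31 of the 60 genes, 40 were lower, 0 higher (limma, adjusted p below 0.05) and 16 not called. At an unadjusted p below 0.05, 1 of the 56 was higher, a dim KIF20B probe set. The 16 had a median mean intensity of 107, with 15 of them below 200, against a median of 847 for the 40 that were lower. The brighter exception was an SMC2 probe set with a mean intensity of 608 (log2 change -0.39, limma, adjusted p = 0.141). On it, oncosphere array 2 (717) lay above every monolayer array (683, 696 and 669). A brightest probe set of the _x_at or _s_at kind, which can match several transcripts, stood for 29 genes. When such probe sets were left out, 45 genes could still be measured, of which 38 fell and 0 rose, also at an unadjusted p below 0.05. The size of a fall depended on the probe set for several genes. The log2 change of the next brightest set was -0.68 for CENPN, against -1.06 for the brightest, -0.52 for HMMR, against -0.89, and -0.75 for NUSAP1, against -0.39. For ASPM the 2 other sets gave -0.86 and -1.05, against -0.61. CENPA, like PTTG1 and FOXM1, was read by a single probe set of the _x_at kind. A probe set shared with SLC35F6 (log2 change -1.25) also matched CENPA and was not used.

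Oncosphere culture 2 lay between the other oncosphere cultures and monolayer for most of the genes. The median level of the 60 genes, relative to the monolayer mean, was -0.95, -0.54 and -0.91 on the log2 scale on the oncosphere arrays 1, 2 and 3, and between -0.02 and 0.01 on the monolayer arrays. For the 57 genes that fell, culture 2 lay a median share of 0.445 of the way back from the mean of the oncosphere arrays 1 and 3 to monolayer, on the log2 scale. The share ran from 0.0483 for BUB3 and 0.0976 for MAD2L1 to 0.722 for NUSAP1 and 0.738 for KIFC1. CDC20 (0.254), PLK1 (0.222) and SPC25 (0.176) stayed low on that array, whereas FOXM1 (0.665), KIF11 (0.684) and PTTG1 (0.688) were nearer to monolayer. For KIF15 the share was 1.04, that is, the monolayer level. The 2 genes that were not highest on array 2 among the oncosphere arrays, CDC25B and CDCA5, were lowest there.

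The fall did not rest on any one oncosphere array. Without oncosphere array 2, 58 of the 60 genes fell and 1 rose, with a median log2 change of -0.93, and without array 1 or 3 the counts of lower genes were 51 and 52. The same array was also high for replication genes, where it had the highest oncosphere level for 45 of 50 (90.0%) and medians were -0.67, -0.38 and -0.72 on the oncosphere arrays 1, 2 and 3. The labels do not tell culture 2 apart from the other cultures.

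**Figure D4:**
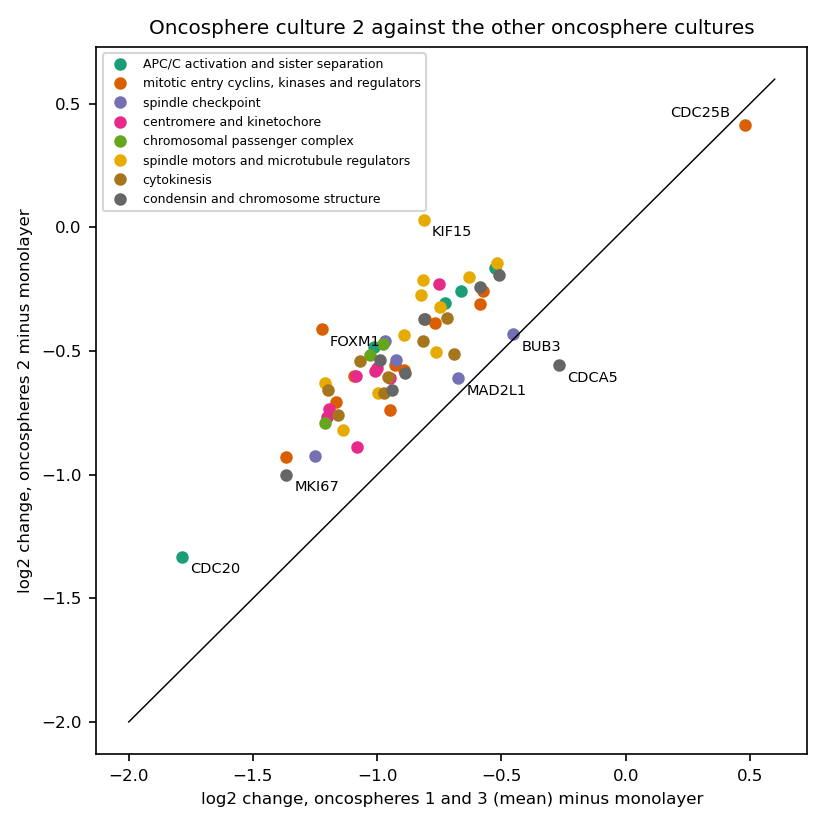
Log2 change from the monolayer mean on the oncosphere 2 array (vertical) against the mean of the oncosphere arrays 1 and 3 (horizontal), 1 point for each of the 60 genes, colored by role, with the line of equality. Points above the line were closer to monolayer on array 2, and KIF15 reached 0.03 there against -0.81 on the others, while BUB3 and MAD2L1 lie near the line and CDCA5 and CDC25B below it.

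Genes of mitosis outside the 60 also fell more often than they rose. From 161 further genes listed by role, 154 were measured, with a median log2 change of -0.37. Of these, 91 fell (59.1%), 14 rose (9.09%) and 49 were not called. Over all genes 17.5% fell and 17.4% rose, which are the shares to set beside the counts by role below. The median was -0.80 for the 60 genes and -0.60 for 50 measured DNA replication genes, of which 40 fell and 0 rose (limma, adjusted p below 0.05, and also 0 at an unadjusted p below 0.05). These lists were not compared by a test.

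**Figure D5:**
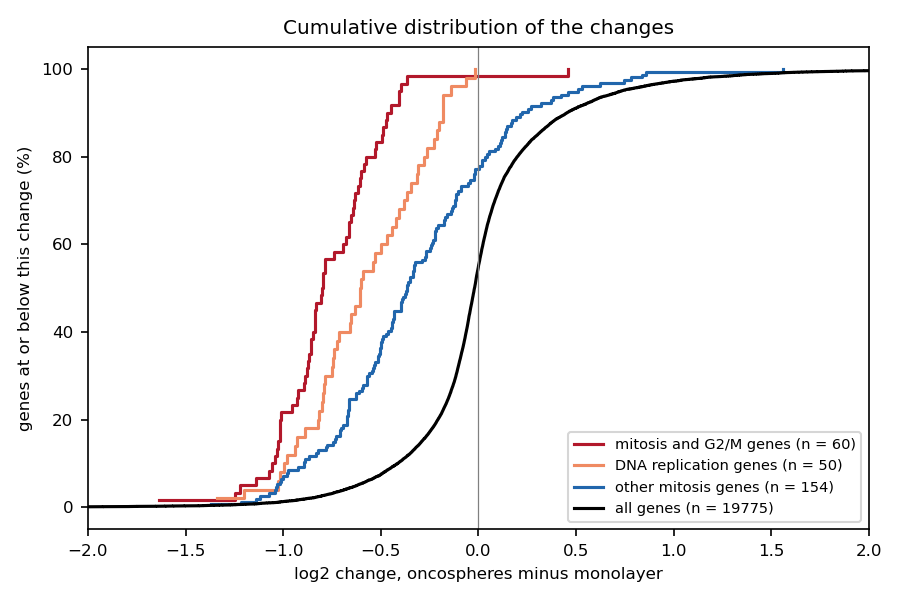
Cumulative distribution of the log2 change (horizontal, oncospheres minus monolayer) as the percentage of genes at or below each value, for the mitosis and G2/M genes, the DNA replication genes, other mitosis genes and all genes. The median lies at -0.80 for the mitosis and G2/M genes, -0.60 for replication, -0.37 for the other mitosis genes and -0.02 for all genes, and the horizontal axis stops at -2 and 2.

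Among the roles of the further mitosis genes, kinetochore genes were nearest to the 60 in their median log2 change (-0.58). Of these 24, 19 were lower and 0 higher (limma, also 0 at an unadjusted p below 0.05). SKA3, of a complex that follows microtubule ends, had a log2 change of -1.37 but spread widely, with 251, 701 and 467 on the oncosphere arrays 1, 2 and 3, against 1262, 1451 and 777 on the monolayer arrays (adjusted p = 0.0228). Log2 changes were -1.14 for CENPM, of the inner kinetochore, and -1.03 for OIP5, which helps load CENPA. Of 11 other checkpoint and passenger genes 9 fell, with log2 changes for the kinetochore adaptor SPDL1 of -1.04, the remodeler TRIP13 of -0.89 and the cohesion protector SGO2 of -0.74.

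Of the other spindle and centrosome genes, 20 of 31 fell and 2 rose (median log2 change -0.43). DEPDC1, FAM83D and TROAP had log2 changes of -1.22, -1.12 and -1.01, whereas NUMA1, which anchors microtubules at the spindle poles and is nuclear between divisions, rose by 0.75 on the log2 scale. NUMA1 had intensities of 1129, 1009 and 1103 on the oncosphere arrays 1, 2 and 3, against 639, 637 and 649.9 on the monolayer arrays. All 3 oncosphere arrays lay above all 3 monolayer arrays for NUMA1.

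The subunits of the APC/C itself changed less than its activator CDC20. Of 15 measured subunits and regulators 7 fell and 0 rose (limma, 1 at an unadjusted p below 0.05), with a median log2 change of -0.18, and none fell by 1.5-fold. The largest log2 changes were those of FBXO5, an inhibitor of the APC/C made in S and G2 phase (-0.53), and of the subunits CDC26 (-0.50) and ANAPC7 (-0.49). For cohesin and condensin II genes, 6 of 15 were lower (40%) and 2 higher (13.3%, against 17.4% of all genes). Their median log2 change was -0.09. Log2 changes were -1.07 for NCAPG2, of condensin II, -0.66 for the cohesin acetyltransferase ESCO2 and -0.47 for the cohesin ring subunit SMC3, while ESCO1, the other acetyltransferase of cohesin, was higher (0.46).

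The other cytokinesis genes split evenly, with 4 of 13 lower and 4 higher (30.8% each, against 17.5% and 17.4% of all genes). Their median log2 change was 0.02. Log2 changes were -1.02 for ARHGAP11A, a regulator of RhoA, -0.89 for SHCBP1 and -0.87 for the abscission factor CEP55. CHMP4B, of the ESCRT machinery that cuts membranes at abscission and also in endosomes, rose by 0.86 on the log2 scale. Of 23 other entry and exit kinases, phosphatases and partners, 14 fell and 2 rose (median log2 change -0.36). CCNH, the cyclin of the CDK-activating kinase, was 2-fold lower. Log2 changes were -0.97 for BORA, which helps AURKA activate PLK1, and 0.62 for NEK9, a kinase that acts on other NEK kinases.

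Of 22 transcriptional regulators of G2/M genes, 12 were lower (54.5%, against 17.5% of all genes) and 4 higher (18.2%, against 17.4%). The share that rose was thus near that of all genes. CDKN1A, or p21, which inhibits cyclin-dependent kinases, had intensities of 1862, 1449 and 1952 on the oncosphere arrays 1, 2 and 3, against 519, 609 and 651 on the monolayer arrays. It was 2.95-fold higher (log2 change 1.56, SE 0.13, adjusted p = 6.57e-05), and oncosphere array 2 was the lowest of the 3. RBL2, the p130 protein of the DREAM complex, had intensities of 960.0, 1007 and 911 on the oncosphere arrays 1, 2 and 3, against 553, 522 and 599 on the monolayer arrays (log2 change 0.78, adjusted p = 1.14e-04). TFDP2, a partner of E2F proteins, rose by 0.84 on the log2 scale, and the oncosphere arrays of both genes lay close together. Among those that fell, chosen after their values were seen, were MYBL2, which encodes B-MYB (log2 change -0.67), and the repressor E2F8 (-0.73). Subunits of MuvB, also chosen afterwards, went both ways, with log2 changes of -0.67 for LIN9, -0.56 for LIN52 and -0.44 for LIN54, but 0.53 for LIN37, which was higher (adjusted p = 0.0233). RBBP4, another subunit, was not called (-0.12). MYBL2 had intensities of 354, 487 and 353 on the oncosphere arrays 1, 2 and 3, against 613, 642 and 629 on the monolayer arrays. As with most of the 60 genes, array 2 was the highest of the oncosphere arrays for MYBL2.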

How the data were processed

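RNA of 3 oncosphere and 3 monolayer cultures of MDA231-LM2 cells was hybridized to Affymetrix Human Genome U133 Plus 2.0 arrays, from 100 ng of total RNA each. The deposited intensity of each probe set was normalized by the authors with robust multi-array averaging in Chipster (the submitters' processing notes name affy, with the version not given in the sources used here) and lay on a linear scale with a minimum of 48.0, so log2 was taken. Whether values had been rescaled was not given in the sources used here. The number of arrays limits the precision, and 62 control probe sets were left out, which left 54613 to test.

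Oncospheres were compared with monolayer with limma 3.58.1 in R 4.3.3 (lmFit and eBayes), p-values were adjusted by Benjamini-Hochberg across the tested probe sets, and genes were called at an adjusted p below 0.05. The labels call the cultures biological replicates of 1 line, and p-values measure the spread between them. Symbols came from the platform annotation, checked against RefSeq gene identifiers of GRCh38.p14. Of 161 further mitosis genes, up to 3 called genes with the largest absolute change per role, in either direction, were named, with the largest of the less frequent direction, and others are named as chosen after their values were seen. The procedure was tested on simulated arrays. Genes, lists and tests were chosen with earlier results of these data known. Promoters were searched with Python 3.11.15. The alternatives were other normalizations, probe set choices, priors and thresholds, a subtracted background, the replicate number as a block and each array left out.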

Additional observations from a re-analysis of the deposited data

How the results depend on the processing

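The count of lower mitosis and G2/M genes lay between 38 (of 45 measured, without _x_at and _s_at probe sets) and 58 under all alternatives, against 57, and was 51 to 58 with each array left out. The count of higher genes was 1, and 0 both without _x_at and _s_at probe sets, where CDC25B had no probe set left, and with a minimum of 1.5-fold. With that minimum, the related mitosis genes numbered 42 lower and 6 higher, against 91 and 14. With each array left out they were 77 to 95 lower and 11 to 12 higher. The median log2 change of the 60 genes ran from -0.93 to -0.72 over all alternatives, and over the arrays left out the lowest value was that without oncosphere array 2. With the replicate number as a block, 57 genes fell and 1 rose (median log2 change -0.80), with no call of these 60 changed, and the related genes numbered 92 lower and 12 higher. Of 1005 values of single genes under the alternatives, 946 kept direction and call, 57 lost the call, 1 gained it (KIF15 without oncosphere array 2) and 1 changed direction, CDC25C at 0.0319 by its dim probe set without _x_at and _s_at probe sets. With each array's 5th percentile subtracted, 47 genes fell, and the median log2 change was -0.84. KIF20B lost its call with the mean of all its probe sets (adjusted p = 0.118) and NUSAP1 with cyclic loess (0.0617). Cultures with the same number correlated at 0.0685 to 0.089 in their deviations from the group means, under the 0.1 taken to show pairing, although each correlated best with its own number. The means of all 60 genes lay above the median intensity of the arrays, and 3 arrays in each group limit what could be called.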
